A study of Mus musculus with 41 samples.

Results

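The dorsal and V0/V1 interneuron factors described here are 10 homeodomain, paired-domain and zinc-finger transcription factor genes, Pax2, Pax8, Lhx1, Lhx5, Lbx1, Tlx3, Barhl1, Barhl2, Prdm13 and En1. They were taken by gene symbol from a table of 24410 genes, and 10 of the 10 were found and passed the filter on low counts that left 15204 genes for testing. RNA was sequenced from R1-iCas9 mouse embryonic stem cells, a line with doxycycline-inducible Cas9, that were driven towards ventral spinal cord neural progenitors in N2B27 medium with bFGF, then CHIR99021 (a GSK3 inhibitor), then retinoic acid with SAG (a Smoothened agonist), and then SAG alone. Pools of 5 crRNAs against 1 gene were transfected at the start of differentiation, and the 5 genotypes in the labels are Eed KO, Ezh2 KO, Brd8 KO and Nr6a1 KO, with a non-targeting control, NT. All genotypes, NT included, carried the induced Cas9 and received doxycycline before transfection. Each genotype was collected on days 7, 9 and 11, with 3 libraries per group, except 2 for Nr6a1 on each day and 2 for Brd8 on day 9, which makes 41 libraries in 15 groups. The labels describe transfection and no cloning step, and a share of unedited cells may be present in each targeted library. The labels do not say whether libraries of a group came from separate cultures, and the p-values below measure only the spread between these libraries.

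In the developing spinal cord, graded Sonic hedgehog from the ventral side and BMP and Wnt signals from the dorsal side divide progenitors into domains, and each domain gives rise to a class of neurons marked by a combination of transcription factors. Lhx1 and Lhx5 are LIM homeodomain factors of many dorsal and ventral interneuron classes, Pax2 and Pax8 mark inhibitory classes among them, and En1 marks V1 interneurons, which arise next to the V0 class. Lbx1, Tlx3, Barhl1, Barhl2 and Prdm13 belong to dorsal classes. Among these, Tlx3 belongs to excitatory sensory interneurons, and Barhl1 and Barhl2 to the most dorsal neurons. Prdm13 belongs to progenitors and early neurons that choose an inhibitory over an excitatory fate. Eed and Ezh2 encode subunits of PRC2, the Polycomb complex that methylates histone H3 at developmental genes, many with CpG-rich promoters. Brd8 encodes a bromodomain subunit of the NuA4/TIP60 histone acetyltransferase complex, and Nr6a1 encodes an orphan nuclear receptor, GCNF.

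Promoters are shown for 4 of the genes as examples with few and with many CG dinucleotides, since PRC2 is known at CpG-rich promoters. The sequences are RefSeq promoters in GRCm38.p6 of 300 bases (250 before and 50 after the transcription start), 5′ to 3′ on the gene's strand, with each CG in capitals. Of the 10 genes, 8 had a promoter in that table, and Lhx5 and Lbx1 are named only.
Pax2: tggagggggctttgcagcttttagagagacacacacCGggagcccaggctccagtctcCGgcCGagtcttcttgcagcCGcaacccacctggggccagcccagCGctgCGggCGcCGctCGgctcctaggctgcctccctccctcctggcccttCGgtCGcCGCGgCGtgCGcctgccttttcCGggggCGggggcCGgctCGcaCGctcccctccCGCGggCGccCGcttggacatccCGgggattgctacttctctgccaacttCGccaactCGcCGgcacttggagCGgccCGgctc
Pax8: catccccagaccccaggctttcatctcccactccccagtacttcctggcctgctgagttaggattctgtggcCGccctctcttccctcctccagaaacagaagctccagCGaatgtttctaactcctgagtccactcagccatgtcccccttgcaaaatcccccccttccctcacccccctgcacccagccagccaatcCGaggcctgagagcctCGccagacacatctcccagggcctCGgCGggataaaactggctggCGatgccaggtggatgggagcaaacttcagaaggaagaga
Prdm13: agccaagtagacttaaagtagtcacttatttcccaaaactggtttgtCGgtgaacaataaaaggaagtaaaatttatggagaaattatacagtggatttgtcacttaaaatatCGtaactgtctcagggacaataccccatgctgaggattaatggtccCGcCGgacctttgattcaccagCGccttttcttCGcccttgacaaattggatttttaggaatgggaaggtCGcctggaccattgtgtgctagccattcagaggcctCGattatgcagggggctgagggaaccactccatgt
Barhl2: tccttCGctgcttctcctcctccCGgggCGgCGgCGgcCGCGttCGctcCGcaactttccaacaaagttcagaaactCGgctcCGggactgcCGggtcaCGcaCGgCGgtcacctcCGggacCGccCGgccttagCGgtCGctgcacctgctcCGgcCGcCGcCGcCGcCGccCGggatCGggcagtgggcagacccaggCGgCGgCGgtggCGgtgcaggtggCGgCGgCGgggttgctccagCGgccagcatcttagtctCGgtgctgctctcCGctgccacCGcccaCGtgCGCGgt
The table holds 3 windows for Pax2, all on the plus strand, and the one printed is chr19:44756656-44756955, which holds 30 CG dinucleotides, and 11.7% of 32851 RefSeq promoters hold at least as many. The other Pax2 windows, at chr19:44746351-44746650 and chr19:44755502-44755801, hold 7 and 23, which 52.1% and 21.5% of promoters reach. Pax8 (chr2:24475550-24475849, minus strand) holds 7, which 52.1% of promoters reach, and Prdm13 (chr4:21685914-21686213, minus strand) holds 8, which 48.7% reach. Barhl2 (chr5:106458117-106458416, minus strand) holds 42, and 3.03% of promoters hold as many. A CG was searched as the letters CG, which read the same on both strands, and 94.6% of all promoters hold 1 or more, with a median of 7. These windows were read for their letters only.

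The genes lie on 6 chromosomes of GRCm38 in the GENCODE annotation: Pax2 at chr19:44756045-44837871 and Lbx1 at chr19:45232684-45235812, Pax8 at chr2:24420560-24475599 and Barhl1 at chr2:28907679-28916668, Lhx5 at chr5:120431699-120441223 and Barhl2 at chr5:106452523-106458166, Lhx1 at chr11:84518284-84525535 and Tlx3 at chr11:33200752-33203589, Prdm13 at chr4:21677480-21685963, and En1 at chr1:120602418-120607992. Pax2 overlaps Mir6405 on the same strand and 1700039E22Rik on the opposite strand, both of which have rows of their own in the count table. Gm20395 on Pax2, Gm13415 on Pax8 and Gm27199 on Lhx5 lie on the opposite strand and have no row there. Whether counting used the strand is not given in the sources used here, so reads of such overlaps, those of Pax8 and Lhx5 included, could not be assigned with certainty.

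Library totals ran from 8581282 to 38240227 estimated counts, at which 3 counts correspond to 0.0748 to 0.37 CPM, the usual count scaled to a fixed library total, here after TMM, which evens out library composition. RNA of the targeted gene did not fall past the edgeR threshold in any targeted group. Nr6a1 was 114 to 132 CPM in Nr6a1-labelled libraries, against 171 to 182 CPM in NT libraries on day 7, and 55.9 to 65.3 CPM against 68.5 to 76.8 CPM in NT libraries on day 9. Brd8 was 87.8 to 94.7 CPM in Brd8-labelled libraries on day 7, against 99.6 to 112.5 CPM in NT libraries. Ezh2 RNA was higher on day 11 in the libraries labelled Ezh2 than in NT libraries (log2 fold change 0.37, edgeR adjusted p = 0.00736). Group means of Ezh2 RNA on that day were 176 CPM (Ezh2), 200 CPM (Eed), 197 CPM (Brd8), 142 CPM (Nr6a1) and 136 CPM (NT). Guides can disrupt a protein without lowering its RNA, and these libraries are therefore called Eed-labelled, Ezh2-labelled, Brd8-labelled and Nr6a1-labelled. The neural progenitor genes Sox1 (53.0 to 116 CPM), Sox2 (125 to 200 CPM) and Nes (278 to 587 CPM), and the ventral progenitor genes Olig2 (75.5 to 296 CPM) and Nkx6-1 (37.1 to 128 CPM), were present in all 15 group means. On day 11 Olig2 fell to 68.0 to 85.6 CPM in Eed-labelled, 137 to 159 CPM in Ezh2-labelled and 74.3 to 117 CPM in Brd8-labelled libraries, against 223 to 268 CPM in NT libraries (edgeR adjusted p of 1.04e-09, 0.00174 and 3.52e-07). Nes fell by 0.94, 0.41 and 0.82 on the log2 scale with the same guides, and the part of these falls in the levels of the 10 factors was not tested. Replicate 3 of Eed day 11 and replicate 3 of NT day 11 stood apart, since their best correlation of log2 CPM with a library of their own group was 0.945 and 0.940. Among genes averaging above 50 counts, NT day 11 replicate 3 held 82 at 0 and Eed day 11 replicate 3 held 30, and counts of calls on day 11 against NT are also given without these libraries.

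**Figure D1:**
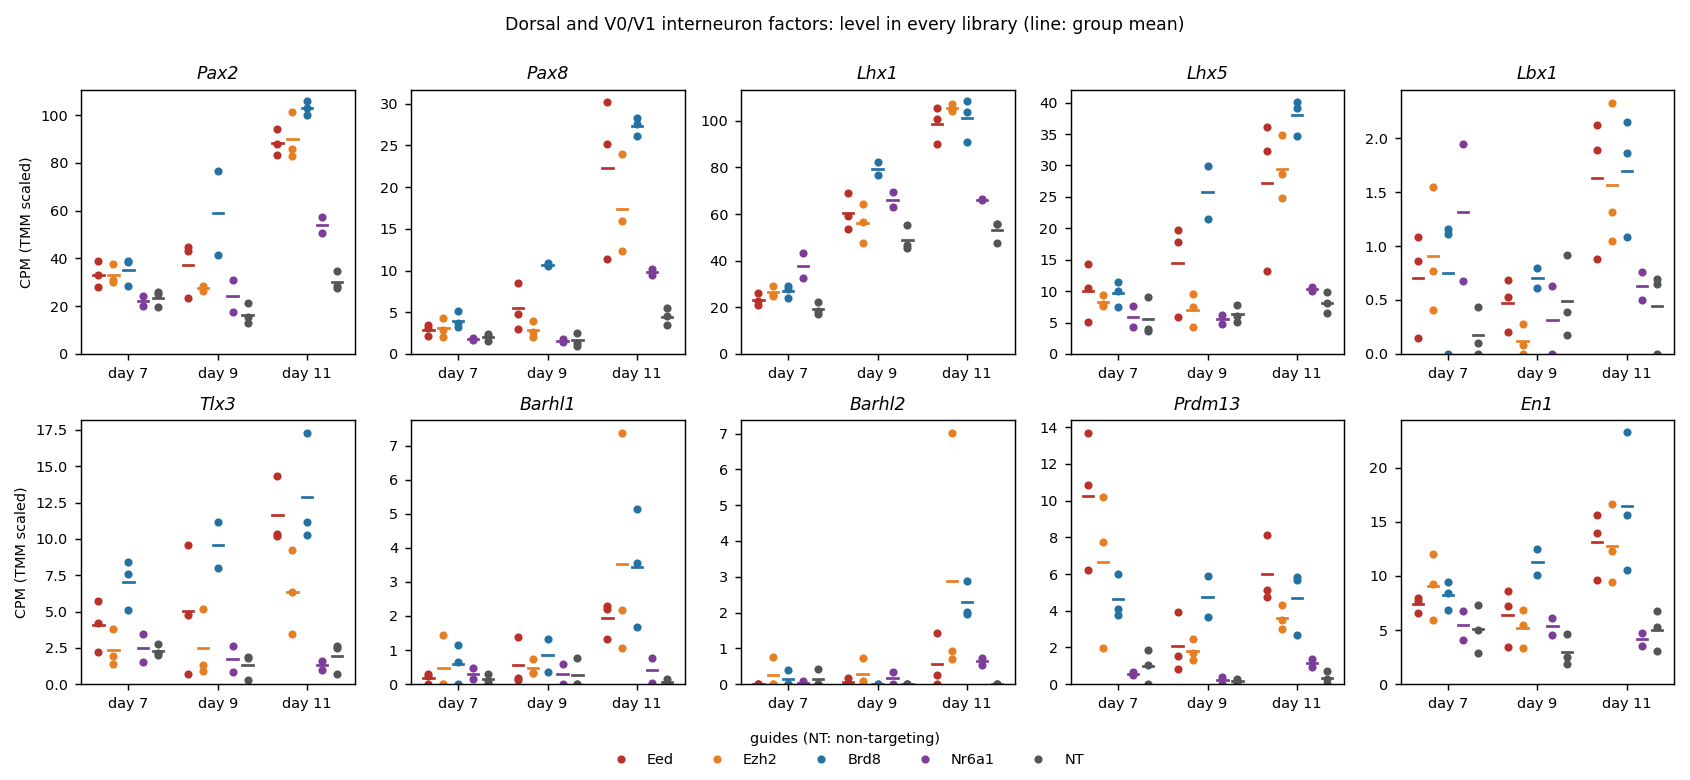
Level of each of the 10 genes in CPM (vertical axis, linear, from 0, scaled to each gene) in all 41 libraries, with days 7, 9 and 11 on the horizontal axis and genotype by colour. Points are libraries and short lines are group means; on day 11 Pax2 was 83.3 to 94.3 CPM in Eed-labelled libraries, against 27.6 to 34.6 CPM in NT libraries.

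Day 11 asked which of these genes differed from NT at the end of the series. Of the 10 genes, 8 rose in Eed-labelled libraries, 8 in Ezh2-labelled libraries and 9 in Brd8-labelled libraries, 0 rose in Nr6a1-labelled libraries, and 0 fell in any of them (edgeR quasi-likelihood test, adjusted p under 0.05 over 15204 genes). Over all genes tested, 13.3% rose in Eed-labelled, 5.22% in Ezh2-labelled, 10.3% in Brd8-labelled and 0.0526% in Nr6a1-labelled libraries. The median log2 fold change of the 10 genes was 2.07 for Eed, 1.81 for Ezh2, 2.41 for Brd8 and 0.65 for Nr6a1, while the median over all genes was 0.02, 0.03, 0.02 and 0.03. All libraries of a group lay above all NT libraries for 9 of the 10 genes with Eed guides, where the background over all genes was 17.4%, for 10 with Ezh2 guides (13.3%), for 10 with Brd8 guides (15.4%) and for 6 with Nr6a1 guides (13.2%). Without the libraries of low agreement, 7, 6, 8 and 0 genes rose in Eed-, Ezh2-, Brd8- and Nr6a1-labelled libraries. Every share of all genes given here comes from the fit with all 41 libraries, and shares for the smaller fits are not given. The comparisons share the 3 NT libraries of the day, so they are not independent of each other. In such bulk RNA, fewer cells of a type and less RNA per cell cannot be told apart.

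Pax2, a paired-box factor of inhibitory interneurons, was 83.3, 94.3 and 87.7 CPM in Eed-labelled, 85.6, 101 and 82.7 CPM in Ezh2-labelled and 100.0, 103 and 106 CPM in Brd8-labelled libraries. It was 57.3 and 50.8 CPM in Nr6a1-labelled libraries and 27.6, 28.5 and 34.6 CPM in NT libraries. The lowest library of each of the 4 targeted groups lay above the highest NT library, and the Nr6a1-labelled libraries lay below the other targeted ones. Relative to NT, Pax2 was higher by a log2 fold change of 1.55 ± 0.21 (SE) with Eed guides, 1.57 ± 0.21 with Ezh2 guides and 1.77 ± 0.21 with Brd8 guides, with edgeR adjusted p of 4.57e-07, 3.15e-06 and 6.39e-08. With Nr6a1 guides the value was 0.84 ± 0.22 and did not pass (edgeR adjusted p = 0.128). The 3 passing values passed in every alternative that was run.

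Pax8, a paralogue of Pax2 with a related binding domain, was 25.2, 30.2 and 11.4 CPM in Eed-labelled, 12.4, 23.9 and 15.9 CPM in Ezh2-labelled and 26.1, 27.5 and 28.3 CPM in Brd8-labelled libraries. It was 9.49 and 10.2 CPM in Nr6a1-labelled libraries and 5.50, 4.54 and 3.42 CPM in NT libraries. No targeted library fell into the NT range, and the lowest Eed-labelled library was the replicate of low agreement. The log2 fold change against NT was 2.31 ± 0.36 for Eed, 1.95 ± 0.36 for Ezh2 and 2.60 ± 0.36 for Brd8 (edgeR adjusted p of 7.03e-06, 0.000356 and 1.68e-06). For Nr6a1 it was 1.12 ± 0.39 and did not pass (edgeR adjusted p = 0.328).

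Lhx1, a LIM homeodomain factor of many interneuron classes, was 90.0, 106 and 101 CPM in Eed-labelled, 107, 105 and 104 CPM in Ezh2-labelled and 91.0, 104 and 109 CPM in Brd8-labelled libraries. It was 66.4 and 66.0 CPM in Nr6a1-labelled libraries and 47.4, 55.7 and 55.8 CPM in NT libraries. The ranges of the Eed-, Ezh2- and Brd8-labelled libraries overlapped one another and stood apart from NT. On the log2 scale the difference was 0.90 ± 0.12 for Eed, 0.99 ± 0.12 for Ezh2 and 0.93 ± 0.12 for Brd8 (edgeR adjusted p of 6.06e-07, 9.99e-07 and 4.91e-07), smaller than for the other genes but with a smaller error. For Nr6a1 it was 0.32 ± 0.13 (edgeR adjusted p = 0.481).

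Lhx5, its close relative, was lower in level and rose more. It was 32.4, 36.1 and 13.2 CPM in Eed-labelled, 24.7, 34.9 and 28.6 CPM in Ezh2-labelled and 39.2, 34.7 and 40.2 CPM in Brd8-labelled libraries. It was 9.98 and 10.6 CPM in Nr6a1-labelled libraries and 8.13, 9.83 and 6.54 CPM in NT libraries. The Nr6a1-labelled values lay within 1 CPM of the NT range, and the lowest Eed-labelled value was again replicate 3. Against NT the log2 fold change was 1.75 ± 0.37 for Eed, 1.85 ± 0.37 for Ezh2 and 2.21 ± 0.37 for Brd8 (edgeR adjusted p of 0.000481, 0.000935 and 3.22e-05).

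En1, the homeodomain factor that defines V1 interneurons, was 13.96, 15.7 and 9.63 CPM in Eed-labelled, 12.3, 16.6 and 9.40 CPM in Ezh2-labelled and 10.6, 15.6 and 23.3 CPM in Brd8-labelled libraries. It was 3.54 and 4.72 CPM in Nr6a1-labelled libraries and 3.10, 5.29 and 6.74 CPM in NT libraries. The Nr6a1-labelled libraries lay inside the NT range, and the other targeted libraries all lay above it. En1 differed from NT by a log2 of 1.39 ± 0.37 for Eed, 1.35 ± 0.37 for Ezh2 and 1.71 ± 0.38 for Brd8 (edgeR adjusted p of 0.00527, 0.0178 and 0.000955). The Ezh2 value did not pass without Ezh2 replicate 2, at 1.11, or without NT replicate 1, at 1.09.

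Prdm13, which encodes a PR-domain zinc-finger repressor of the dorsal cord, was 4.78, 8.11 and 5.14 CPM in Eed-labelled, 4.30, 3.48 and 2.99 CPM in Ezh2-labelled and 5.66, 5.82 and 2.66 CPM in Brd8-labelled libraries. It was 0.940 and 1.39 CPM in Nr6a1-labelled libraries and 0.697, 0.278 and 0 CPM in NT libraries, where it totalled 12 counts. All targeted libraries lay above the NT libraries, 1 of which held no count. Prdm13 was higher by a log2 of 4.09 ± 0.81 for Eed, 3.35 ± 0.81 for Ezh2 and 3.75 ± 0.81 for Brd8, or 17.1-, 10.2- and 13.5-fold (edgeR adjusted p of 0.000212, 0.00601 and 0.000832).

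Tlx3, a homeodomain factor that selects the excitatory fate of dorsal sensory interneurons, was 10.3, 14.3 and 10.2 CPM in Eed-labelled, 3.42, 9.24 and 6.37 CPM in Ezh2-labelled and 17.3, 10.3 and 11.2 CPM in Brd8-labelled libraries. It was 1.57 and 1.01 CPM in Nr6a1-labelled libraries and 2.48, 2.60 and 0.704 CPM in NT libraries. The Eed- and Brd8-labelled libraries all lay above the Ezh2-labelled ones, and the Nr6a1-labelled libraries lay in the NT range. The log2 fold change was 2.57 ± 0.65 for Eed and 2.72 ± 0.65 for Brd8 (edgeR adjusted p of 0.00302 and 0.00247). For Ezh2 it was 1.71 ± 0.64 and did not pass (edgeR adjusted p = 0.0969), and the log2 difference of 0.86 ± 0.59 between the Eed and Ezh2 groups did not pass either (edgeR adjusted p = 0.519).

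Lbx1, a factor of dorsal interneurons, stayed low everywhere. It was 2.12, 1.89 and 0.875 CPM in Eed-labelled, 1.32, 1.04 and 2.33 CPM in Ezh2-labelled and 1.86, 2.15 and 1.09 CPM in Brd8-labelled libraries. It was 0.761 and 0.503 CPM in Nr6a1-labelled libraries and 0.697, 0.649 and 0 CPM in NT libraries. The Eed-, Ezh2- and Brd8-labelled libraries lay above the NT ones, but the log2 fold changes of 1.83 ± 1.10, 1.76 ± 1.10 and 1.88 ± 1.10 did not pass (edgeR adjusted p of 0.24, 0.386 and 0.262), on totals of 83, 89, 64 and 16 counts in the Eed, Ezh2, Brd8 and NT groups.

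Barhl1 and Barhl2, BarH-like homeodomain factors of the most dorsal interneurons, were close to absent from NT libraries on day 11. Barhl1 was 2.20, 2.30 and 1.31 CPM in Eed-labelled, 7.37, 2.19 and 1.05 CPM in Ezh2-labelled and 3.55, 1.66 and 5.13 CPM in Brd8-labelled libraries. It was 0.0448 and 0.774 CPM in Nr6a1-labelled libraries and 0.155, 0 and 0 CPM in NT libraries, where 2 counts were found in all. Each Eed-, Ezh2- and Brd8-labelled library lay above every NT library. The ratio of summed count rates against NT was 34.5 (95% exact Poisson interval 9.29 to 289) for Eed, 47.1 (12.8 to 392) for Ezh2, 54.5 (14.8 to 455) for Brd8 and 7.33 (1.79 to 64.5) for Nr6a1, and these intervals cover counting error only. The edgeR adjusted p was 0.0298 for Eed, 0.0273 for Ezh2, 0.015 for Brd8 and 0.776 for Nr6a1. These Barhl1 calls rest on few libraries: the Eed call was lost without Eed replicate 1 or 2, the Ezh2 call without Ezh2 replicate 1, and each of the 3 without NT replicate 2 or 3. Leaving out NT replicate 1, the only NT library with Barhl1 counts, put the fitted log2 value of 4.90 for Eed at 7.91, that of 5.75 for Ezh2 at 8.76 and that of 5.72 for Brd8 at 8.73, which depend on the prior count and bound nothing.

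Barhl2 was 1.43, 0.246 and 0 CPM in Eed-labelled, 7.02, 0.695 and 0.922 CPM in Ezh2-labelled and 2.87, 2.01 and 1.97 CPM in Brd8-labelled libraries. It was 0.537 and 0.735 CPM in Nr6a1-labelled libraries, and 0 in the 3 NT libraries. One Eed-labelled library shared the value 0 with NT, and 1 Ezh2-labelled library held most of that group's 115 counts. Against 3 counts over the NT group, Barhl2 was at least 9.30-fold higher with Eed guides, at least 23.7-fold higher with Ezh2 guides, at least 25.6-fold higher with Brd8 guides and at least 7.21-fold higher with Nr6a1 guides. These bounds leave out the counting error of the targeted groups, with which the exact Poisson lower limits were 7.20, 19.0, 20.3 and 5.52, and 35 of the 38 Eed counts lay in replicate 1, without which no bound can be given. It passed the test for Ezh2 and Brd8 (edgeR adjusted p of 0.0267 and 0.0184), not for Eed (0.0709) or Nr6a1 (0.481). Both calls were lost without any 1 of the 3 NT libraries and under DESeq2, and the Ezh2 call was lost without Ezh2 replicate 1 as well.

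**Figure D2:**
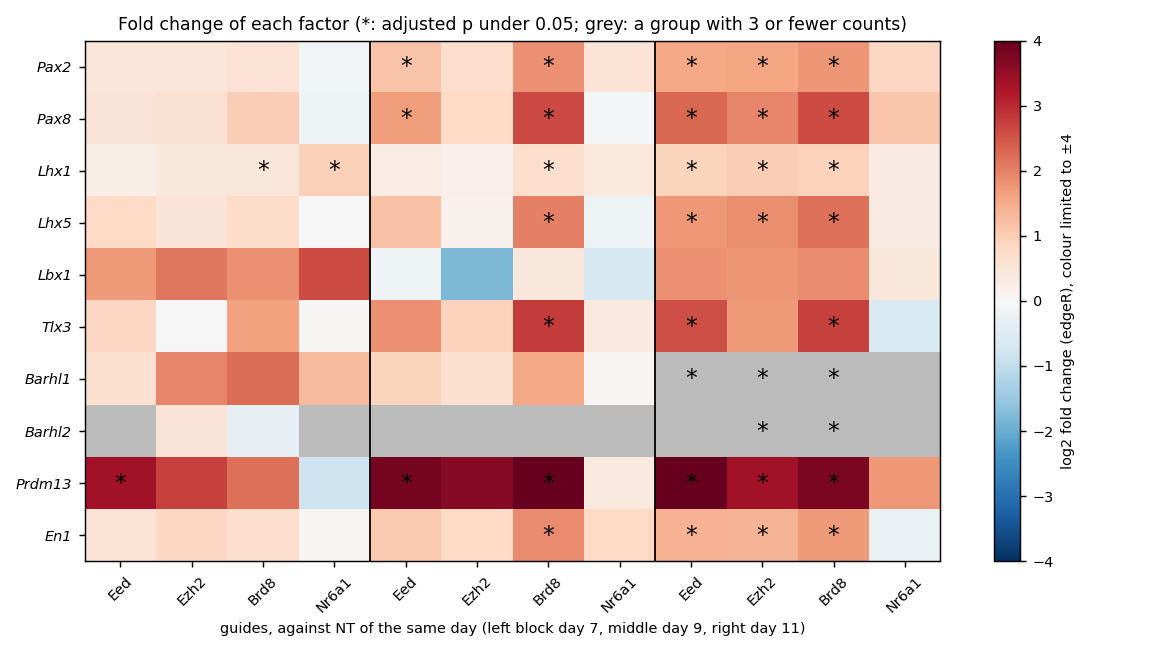
Fitted log2 fold change against NT for each of the 10 genes (rows) in the 12 comparisons of a targeted genotype with NT at the same day (columns), by colour from -4 to 4. An asterisk marks an adjusted p under 0.05 and grey marks a group with 3 or fewer counts; the asterisks gather on day 11, where 8, 8, 9 and 0 genes passed with Eed, Ezh2, Brd8 and Nr6a1 guides.

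On day 9 the genotypes differed in how many of the genes passed the threshold, which is not itself a test between genotypes. Tested directly, as given below with the shares of all genes, 0 passed for Eed against Ezh2 and 0 for Brd8 against Eed guides. For Brd8 against Ezh2 guides 4 passed. Of the 10 genes, 7 rose in Brd8-labelled libraries (7.72% of all genes rose), 3 in Eed-labelled libraries (2.99%), 0 in Ezh2-labelled libraries (0.0%) and 0 in Nr6a1-labelled libraries (0.138%), by the same edgeR test. At an unadjusted p under 0.05, 5 genes with Ezh2 guides and 2 with Nr6a1 guides were reached. DESeq2 called 1 and 0, and gave no adjusted p for 0 and 3.

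Pax2 was 41.6 and 76.7 CPM in Brd8-labelled, 23.4, 43.2 and 44.7 CPM in Eed-labelled, 27.6, 26.4 and 28.4 CPM in Ezh2-labelled and 31.2 and 17.8 CPM in Nr6a1-labelled libraries on day 9, against 15.4, 21.2 and 12.9 CPM in NT libraries. The Pax2 log2 fold change was 1.83 ± 0.23 for Brd8 and 1.13 ± 0.21 for Eed (edgeR adjusted p of 1.05e-06 and 0.00143), and 0.72 ± 0.21 for Ezh2, which did not pass (0.632). All Brd8-, Eed- and Ezh2-labelled libraries were above the NT range, and 1 Nr6a1-labelled library was inside it. Pax8 was 10.8 and 10.6 CPM in Brd8-labelled and 2.94, 4.85 and 8.56 CPM in Eed-labelled libraries, against 1.32, 2.57 and 0.976 CPM in NT libraries. The Pax8 log2 fold change was 2.65 ± 0.41 for Brd8 and 1.66 ± 0.38 for Eed (edgeR adjusted p of 1.91e-05 and 0.00828). The Eed value for Pax8 did not pass without Eed replicate 3, at 1.16, or without NT replicate 1 or 3, at 1.52 and 1.42.

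The LIM factors and En1 rose on day 9 with Brd8 guides. Lhx1 was 76.5 and 82.4 CPM in Brd8-labelled libraries, against 46.8, 45.3 and 55.2 CPM in NT libraries (log2 0.70 ± 0.13, edgeR adjusted p = 0.000281). Lhx5 was 21.5 and 30.0 CPM in Brd8-labelled libraries, against 7.71, 6.10 and 5.15 CPM in NT libraries (log2 2.03 ± 0.40, edgeR adjusted p = 0.00042). En1 was 10.0 and 12.5 CPM in Brd8-labelled libraries, against 2.49, 4.59 and 1.86 CPM in NT libraries (log2 1.88 ± 0.41, edgeR adjusted p = 0.00121). In each of these 3 genes both Brd8-labelled libraries lay above the NT libraries by more than the NT range. With Eed guides, Lhx5 had a log2 value of 1.17 ± 0.37 and En1 of 1.04 ± 0.38, and neither passed (edgeR adjusted p of 0.0577 and 0.106).

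The dorsal factors Prdm13 and Tlx3 had larger folds on day 9 at lower levels. Prdm13 was 3.64 and 5.87 CPM in Brd8-labelled and 0.847, 1.53 and 3.92 CPM in Eed-labelled libraries, against 0.156, 0.0459 and 0.266 CPM in NT libraries, which held 6 counts in all. The Prdm13 log2 fold change was 5.04 ± 0.93 for Brd8 and 3.83 ± 0.90 for Eed (edgeR adjusted p of 0.000181 and 0.0102). It was 3.63 ± 0.91 for Ezh2, at 1.68, 2.47 and 1.32 CPM, and did not pass (edgeR adjusted p = 0.308). All of these targeted libraries were above the NT range. The Eed value for Prdm13 did not pass without Eed replicate 3, at 2.98, or without NT replicate 1 or 2, at 3.91 and 3.25. Tlx3 was 8.0 and 11.1 CPM in Brd8-labelled libraries, against 1.87, 1.84 and 0.266 CPM in NT libraries (log2 2.80 ± 0.70, edgeR adjusted p = 0.00428), and without Brd8 replicate 2 the value was 2.54 and did not pass. Lbx1 and Barhl1 did not pass in any of these comparisons on day 9, and Barhl2 was 0 in both Brd8-labelled and all 3 NT libraries. Within the Eed-labelled libraries of day 9, replicate 1 had the lowest value of its group for 10 of the 10 genes. Without it 6 of the 10 genes rose, but the 2.99% of all genes given for Eed guides belongs to the fit with all libraries.

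On day 7 few of the genes passed the threshold. The median log2 fold change of the 10 was 0.59, 0.56, 0.85 and 0.02 with Eed, Ezh2, Brd8 and Nr6a1 guides, against 0 over all genes. Prdm13 rose in Eed-labelled libraries, Lhx1 rose in Brd8-labelled and in Nr6a1-labelled libraries, and no other value passed. That is 1 of 10 genes for Eed, where 2.9% of all genes rose, 0 for Ezh2 (0.0855%), 1 for Brd8 (1.3%) and 1 for Nr6a1 (0.145%). For Ezh2, 4 genes had an unadjusted p under 0.05 in edgeR, and DESeq2 called 1 and gave no adjusted p for 8.

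Prdm13 on day 7 was 6.22, 13.7 and 10.9 CPM in Eed-labelled, 1.99, 10.2 and 7.72 CPM in Ezh2-labelled, 3.76, 5.98 and 4.11 CPM in Brd8-labelled and 0.648 and 0.479 CPM in Nr6a1-labelled libraries, against 1.06, 1.87 and 0 CPM in NT libraries. The Eed-, Ezh2- and Brd8-labelled libraries were all above the NT range and the Nr6a1-labelled ones inside it. The log2 fold change was 3.37 ± 0.73 for Eed (edgeR adjusted p = 0.00215), while 2.74 ± 0.72 for Ezh2 and 2.22 ± 0.72 for Brd8 did not pass (0.096 and 0.0645). Lhx1 on day 7 was 24.1, 29.1 and 27.7 CPM in Brd8-labelled and 43.3 and 32.5 CPM in Nr6a1-labelled libraries, against 22.4, 18.5 and 17.0 CPM in NT libraries. Its log2 fold change was 0.47 ± 0.13 for Brd8 and 0.95 ± 0.14 for Nr6a1 (edgeR adjusted p of 0.0299 and 0.000198). The Brd8 value was no longer past the threshold without Brd8 replicate 2 or 3 (0.41 and 0.44) or NT replicate 2 or 3 (0.43 and 0.39), and the Nr6a1 value without Nr6a1 replicate 2 (0.74). Pax2 on day 7 was 33.1, 27.9 and 38.8 CPM in Eed-labelled, 30.0, 31.2 and 37.5 CPM in Ezh2-labelled and 28.6, 38.7 and 38.5 CPM in Brd8-labelled libraries, against 24.9, 26.1 and 19.7 CPM in NT libraries. None of the 9 libraries overlapped NT, and the log2 fold changes of 0.49 ± 0.21, 0.48 ± 0.21 and 0.58 ± 0.21 did not pass (edgeR adjusted p of 0.156, 0.383 and 0.108).

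Whether a guide's effect differed between day 11 and day 7 was tested as the difference of the 2 log2 fold changes against NT. For Eed, 3 of the 10 genes had a larger effect on day 11 (4.01% of all genes did), for Ezh2 1 (1.01%), for Brd8 1 (2.98%) and for Nr6a1 0 (0.0395%). For Nr6a1, 5 genes had an unadjusted p under 0.05 in edgeR, and DESeq2 called 0. Pax2 was the gene in common. Its effect was larger on day 11 by a log2 of 1.06 ± 0.29 for Eed, 1.10 ± 0.29 for Ezh2 and 1.19 ± 0.29 for Brd8 (edgeR adjusted p of 0.022, 0.0454 and 0.0119). The Brd8 value passed in each of 19 alternatives. The Ezh2 value did not pass when any 1 of 10 of its 12 libraries was left out, at 1.00 to 1.20, and the Eed value did not pass without Eed day 7 replicate 2, NT day 7 replicate 1 or 2, Eed day 11 replicate 2 or NT day 11 replicate 1, at 0.95 to 1.01. With Eed guides the effect on Pax8 was larger by 1.79 ± 0.54 and that on Lhx1 by 0.63 ± 0.18 (edgeR adjusted p of 0.0367 and 0.0261). The Lhx1 value was lost without Eed day 7 replicate 2 or 3, NT day 7 replicate 1, Eed day 11 replicate 2 or NT day 11 replicate 1, at 0.50 to 0.61. The Pax8 value was lost without Eed day 7 replicate 1 or 2, NT day 7 replicate 1 or 3, Eed day 11 replicate 1 or 2, or NT day 11 replicate 2 or 3, at 1.52 to 1.84.

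The effect on Prdm13 was larger on day 11 than on day 7 by 0.73 ± 1.05 for Eed, 0.61 ± 1.06 for Ezh2 and 1.53 ± 1.07 for Brd8, and none of these differences passed. With Nr6a1 guides the effect on Lhx1 was smaller on day 11 than on day 7 by a log2 of -0.62 ± 0.20, which did not pass (edgeR adjusted p = 0.311).

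The genotypes were also compared with each other, which leaves out the shared NT libraries. Between Eed-labelled and Ezh2-labelled libraries, 0 of the 10 genes passed on day 7 (0.151% of all genes differed), 0 on day 9 (0.0%) and 0 on day 11 (2.88%). At an unadjusted p under 0.05 the counts were 0, 3 and 0 in edgeR. DESeq2 called 0, 0 and 0, but gave no adjusted p for 9, 8 and 0 of the genes. On day 11 the log2 difference, Eed over Ezh2, was -0.02 ± 0.20 for Pax2 and -0.10 ± 0.12 for Lhx1, both with small errors, and 0.75 ± 0.65 for Prdm13 and 0.35 ± 0.33 for Pax8. On day 9 Lhx5 was higher with Eed guides by 0.98 ± 0.37, Pax8 by 0.87 ± 0.36 and Pax2 by 0.42 ± 0.20, none past the threshold (edgeR adjusted p of 0.319, 0.386 and 0.503).

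Between Brd8-labelled and Eed-labelled libraries, 0 of the 10 genes passed on day 9 (0.00658% of all genes were higher) or day 11 (0.0395%), with 5 and 0 genes at an unadjusted p under 0.05 in edgeR and 0 and 0 called by DESeq2. Against Ezh2-labelled libraries on day 9, 4 of the 10 genes were higher in Brd8-labelled ones, where 4.17% of all genes were. These were Lhx5 (log2 1.84 ± 0.39), Pax8 (1.87 ± 0.39), Pax2 (1.11 ± 0.22) and Lhx1 (0.50 ± 0.13), with edgeR adjusted p of 0.0025, 0.00198, 0.00132 and 0.0135. Both Brd8-labelled libraries lay above all Ezh2-labelled ones for each of these genes. All 4 were lost without Brd8 replicate 2, at 1.58, 1.88, 0.60 and 0.44, and Lhx1 also without Ezh2 replicate 1, at 0.39.

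Nr6a1-labelled libraries held less of 7 of the 10 genes than Eed-labelled libraries on day 11, where 8.87% of all genes were lower. The log2 difference was -3.17 ± 0.77 for Tlx3, -2.35 ± 0.79 for Prdm13, -1.66 ± 0.42 for En1 and -1.41 ± 0.41 for Lhx5 (edgeR adjusted p of 0.00251, 0.0335, 0.00401 and 0.0118). For Pax8 it was -1.18 ± 0.39, for Pax2 -0.71 ± 0.22 and for Lhx1 -0.58 ± 0.13 (edgeR adjusted p of 0.0273, 0.0213 and 0.00176). Without Nr6a1 replicate 1 or replicate 3, which leaves a single Nr6a1-labelled library assumed to vary like the other groups, 2 of the 10 remained past the threshold in each case, and Lhx1 passed in every alternative. Leaving out Eed replicate 2 lost Lhx5, Pax2, Pax8 and Prdm13, with values of -1.17, -0.66, -0.91 and -2.07, and leaving out Eed replicate 1 lost Pax8, at -1.08. The 3 comparisons of Brd8-labelled libraries with Eed- or Ezh2-labelled ones and the comparison of Nr6a1- with Eed-labelled ones were chosen after the data were seen.

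Within NT libraries, 2 of the 10 genes changed in each of 3 comparisons of days, 4 different genes in all. In none of the 3 was the share of the 10 genes above that of all genes. From day 7 to day 9, 27.9% of all genes changed, and 2 of the 10 did: Lhx1 was 49.1 ± 5.34 CPM on day 9 and 19.3 ± 2.75 CPM on day 7 (SD, n = 3 each; log2 1.33 ± 0.13, edgeR adjusted p = 3.28e-10), and Prdm13 fell by 2.77 on the log2 scale (0.0248). The Prdm13 change did not pass without NT day 7 replicate 1 or 2, at -2.69 and -2.09, or without NT day 9 replicate 1 or 2, at -2.85 and -2.20. From day 9 to day 11, 23.5% of all genes changed, and Pax2 and Pax8 did. Pax2 averaged 30.2 ± 3.80 CPM on day 11 and 16.5 ± 4.30 CPM on day 9, a log2 change of 0.85 ± 0.21, and Pax8 rose by 1.41 ± 0.39 (edgeR adjusted p of 0.00278 and 0.00658). From day 7 to day 11, 45.2% of all genes changed, and 2 of the 10 did, Lhx1 by 1.44 ± 0.13 and Pax8 by 1.15 ± 0.39 (edgeR adjusted p of 6.67e-12 and 0.0149). The Pax8 change from day 7 to day 11 was lost without NT day 7 replicate 2, at 1.01, or NT day 11 replicate 1, at 0.97. The other 6 genes passed in none of these 3 comparisons.

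Across all 15 groups, levels of different genes were set side by side per kilobase of annotated exon, since CPM favours long transcripts. The highest group mean was 25.9 CPM per kb for Lhx1 (Ezh2 day 11), 19.0 for Pax2, 14.1 for Lhx5, 8.42 for Tlx3, 6.28 for En1 and 4.51 for Pax8 (all Brd8 day 11), 2.40 for Prdm13 (Eed day 7), 1.24 for Barhl2 and 0.906 for Barhl1 (both Ezh2 day 11) and 0.683 for Lbx1 (Brd8 day 11). Prdm13 was thus the only one of the 10 whose highest group mean fell on day 7. In the order of Pax2 levels in CPM, Brd8 day 11 (103), Ezh2 day 11 (89.8) and Eed day 11 (88.4) overlapped, a gap followed, and then came Brd8 day 9 (59.2) and Nr6a1 day 11 (54.1), with NT day 9 lowest (16.5). For Pax8 the same 3 groups of day 11 came first, with Brd8 day 11 (27.3), Eed day 11 (22.2) and Ezh2 day 11 (17.4) overlapping and then, without overlap, Brd8 day 9 (10.7), Nr6a1 day 11 (9.83) and Eed day 9 (5.45). For Prdm13, En1, Tlx3, Lbx1 and Barhl1, neighbours overlapped at every step of the order.

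Pax2 and Pax8 had the most alike patterns among the 10 genes, with a Pearson r of 0.98 over the 15 group means and 0.94 over the 41 libraries, on log2 CPM. Pax8 and Lhx5 had 0.95, Pax2 and Lhx5 0.94 and Tlx3 and En1 0.92 over the group means, and Lhx1 and Prdm13 were least alike, at 0.04. These are descriptions over points that share genotype, day and NT libraries. Outside the 10 genes, those most like Pax2 were Fam114a1 (0.96), Mfap4 and Plekha4 (0.94 each). Those most like Pax8 were Mfap4 (0.96), Evx1 and Myot (0.95 each), and Evx1 is the homeodomain factor of V0 interneurons. Lhx1 was most like Elmod2 (0.97), Gad1 and Armcx3 (0.96 each), where Gad1 encodes an enzyme that makes the inhibitory transmitter GABA, and Lhx5 was most like Fam210b (0.97), Kcnmb2 and Gas7 (0.96 each). Tlx3 and En1 shared Tlx2 (0.95 and 0.94) and Foxd3 (0.93 and 0.90) among their nearest genes, and Pou4f1 (0.93) was a further one for En1. Prdm13 was most like Boc (0.95), which encodes a Hedgehog co-receptor, Fgf15 and Msx1 (0.93 each).

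**Figure D3:**
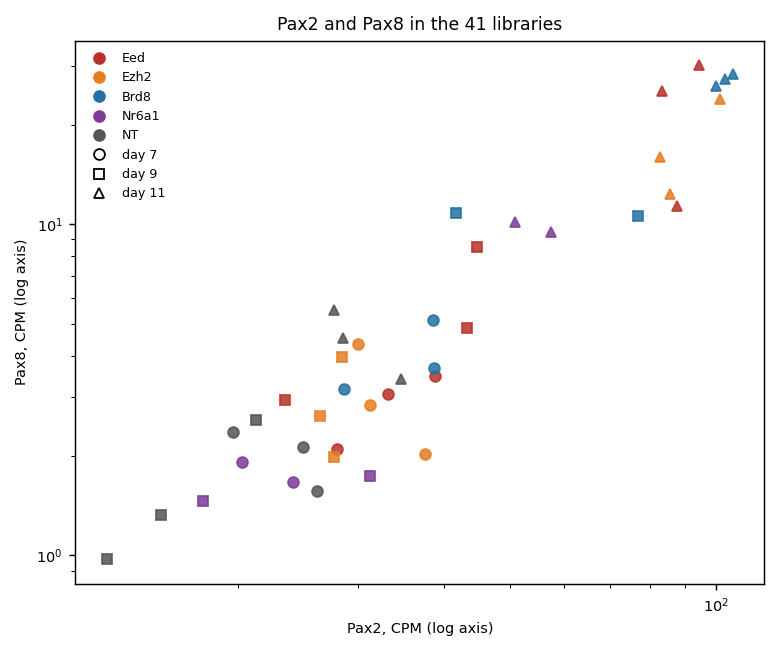
Pax8 against Pax2 in CPM on log axes for the 41 libraries, with genotype by colour and day by shape. The points run along 1 diagonal, with a Pearson r of 0.94 on log2 CPM, and the Eed-, Ezh2- and Brd8-labelled libraries of day 11 lie at its upper right.

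Other genes of the same cell classes moved on day 11 as well. Of 18 transcription factors of the progenitors that give rise to V0, V1 and dorsal interneurons, 15 rose with Eed guides (13.3% of all genes), 11 with Ezh2 guides (5.22%), 14 with Brd8 guides (10.3%) and 0 with Nr6a1 guides (0.0526%), and 0 fell (edgeR, same threshold). Their median log2 fold change was 3.02, 2.72, 3.00 and 1.03, or 2.94, 2.54, 3.00 and 0.94 with genes at 0 in a group set at their bound. Without the libraries of low agreement, 9, 9 and 8 rose with Eed, Ezh2 and Brd8 guides. Neurog1, a proneural factor, averaged 87.5 ± 7.48 CPM in Eed-labelled, 58.8 ± 5.74 CPM in Ezh2-labelled and 79.3 ± 7.15 CPM in Brd8-labelled libraries, against 10.4 ± 5.61 CPM in NT libraries (SD, n = 3 each). Dbx1, the factor of V0 progenitors, averaged 59.6 ± 16.9 CPM in Ezh2-labelled and 83.7 ± 12.98 CPM in Brd8-labelled libraries, against 9.72 ± 7.41 CPM in NT libraries (log2 2.58 ± 0.35 and 3.07 ± 0.35, edgeR adjusted p of 5.43e-06 and 4.61e-08). Pax6, whose dose sets progenitor domains, was higher by a log2 of 2.20 ± 0.21 with Eed, 1.78 ± 0.21 with Ezh2 and 2.00 ± 0.21 with Brd8 guides. The summed level of the list was 548 to 591, 423 to 462, 520 to 553 and 217 to 222 CPM in Eed-, Ezh2-, Brd8- and Nr6a1-labelled libraries, against 151 to 188 CPM in NT libraries.

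On earlier days the same 18 genes counted 8 higher with Eed, 0 with Ezh2, 6 with Brd8 and 0 with Nr6a1 guides on day 7, and 8, 0, 11 and 0 on day 9. Over all genes, 2.9%, 0.0855%, 1.3% and 0.145% rose on day 7, and 2.99%, 0.0%, 7.72% and 0.138% on day 9. The median log2 fold change of the 18 genes was 1.25, 0.92, 0.59 and -0.53 on day 7. On day 9 it was 1.67, 0.52, 2.39 and 0.10. With the bounds used above, and genes at 0 in both groups left out, it was 1.25, 0.60, 0.72 and -0.45 on day 7. On day 9 it was then 1.41, 0.50, 2.07 and 0.13. In NT libraries 9 of the 18 fell and 2 rose between day 7 and day 11, when 23.3% of all genes fell and 21.9% rose.

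Of 21 tested transcription factors of other dorsal, V0 and V1 neurons, 11 rose with Eed (13.3% of all genes), 7 with Ezh2 (5.22%), 10 with Brd8 (10.3%) and 0 with Nr6a1 guides (0.0526%) on day 11, and 7, 7 and 7 rose with Eed, Ezh2 and Brd8 guides without the libraries of low agreement. Pou4f1, the POU factor Brn3a of dorsal excitatory and sensory neurons, averaged 60.6 ± 7.47 CPM in Eed-labelled, 37.0 ± 12.99 CPM in Ezh2-labelled and 69.8 ± 8.27 CPM in Brd8-labelled libraries, against 12.1 ± 3.28 CPM in NT libraries (SD, n = 3 each). Evx1, the V0 factor, was higher by a log2 of 1.36 ± 0.32 with Ezh2 and 1.48 ± 0.32 with Brd8 guides (edgeR adjusted p of 0.00427 and 0.000831). Of 12 transmitter genes, 5, 4 and 5 rose with Eed, Ezh2 and Brd8 guides (13.3%, 5.22% and 10.3% of all genes), or 3, 2 and 4 without the libraries of low agreement, and 1 fell with each (10.6%, 2.7% and 7.48% of all genes). The summed level of these genes was 233 to 318 CPM in Eed-labelled, 316 to 369 CPM in Ezh2-labelled and 257 to 299 CPM in Brd8-labelled libraries, below the 463 to 528 CPM of NT libraries. Gad1 and Gad2, which encode the GABA-making enzymes, rose with each of the 3 (Gad1 log2 1.38 ± 0.36, 1.29 ± 0.36 and 1.62 ± 0.36).

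**Figure D4:**
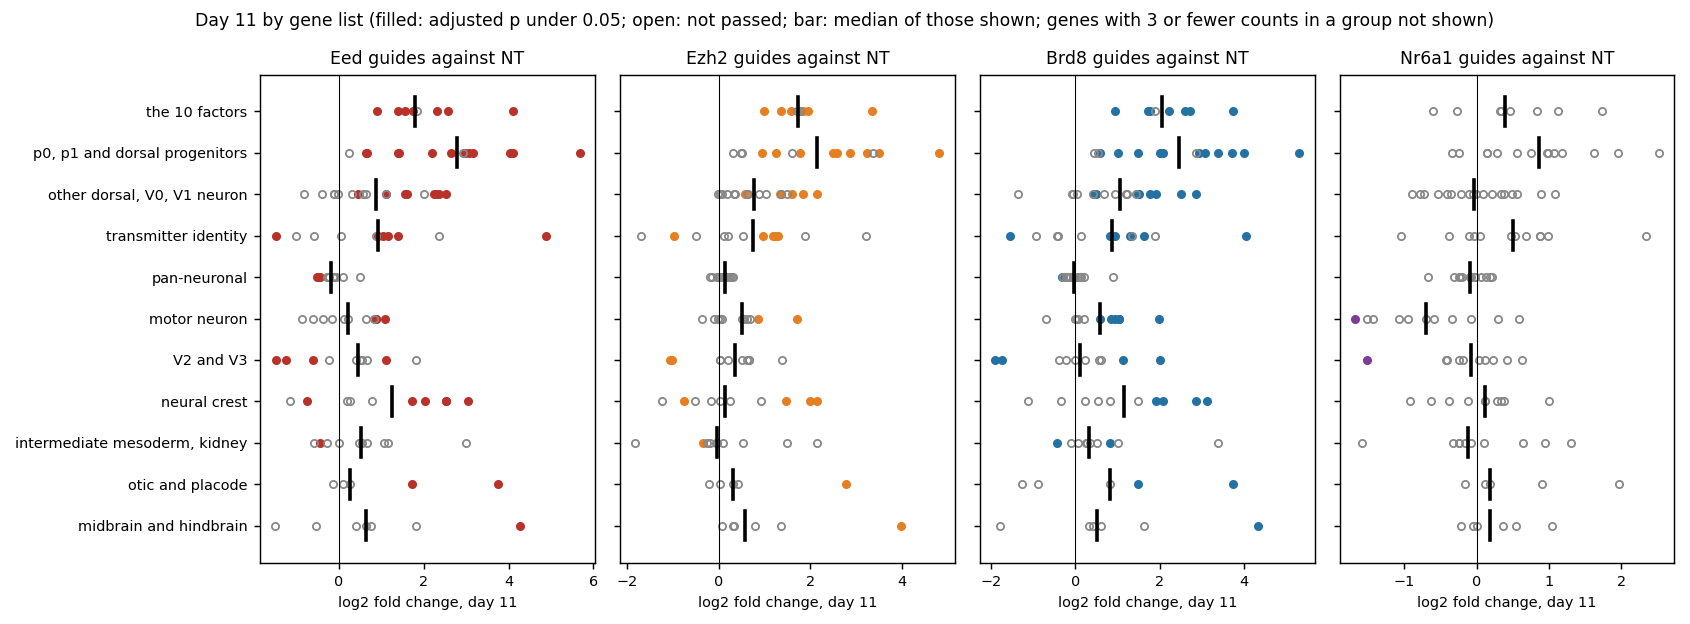
Log2 fold change against NT on day 11 (horizontal axis) of each gene in 11 gene lists (rows), in a panel per genotype. Filled points passed the test, open points did not, bars are medians of the points shown, and genes with 3 or fewer counts in a group are left out; with Eed, Ezh2 and Brd8 guides, the points in the row of the 10 factors all lie right of 0.

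Markers of other cells were set beside these results. Of the 14 pan-neuronal genes, 0 rose on any day, and on day 11, 3 fell with Eed guides (10.6% of all genes fell), 0 with Ezh2 guides (2.7%) and 1 with Brd8 guides (7.48%). Earlier, 12 of 14 fell with Eed guides on day 7 (5.76% of all genes), and with Brd8 guides 9 fell on day 7 (3.45%) and 11 on day 9 (7.81%). The summed pan-neuronal level on day 9 was 4281 to 5372 CPM in Brd8-labelled libraries, against 6837 to 7938 CPM in NT libraries, while 7 of the 10 factors rose there. Of 10 V2 and V3 genes, 1 rose and 3 fell with Eed, 0 rose and 2 fell with Ezh2, 2 rose and 2 fell with Brd8 and 0 rose and 1 fell with Nr6a1 guides on day 11, with a median log2 fold change of 0.46, 0.34, 0.12 and -0.08. On that day 13.3%, 5.22%, 10.3% and 0.0526% of all genes rose with these guides, and 10.6%, 2.7%, 7.48% and 0.0263% fell. Among the V2 and V3 genes, the V3 progenitor gene Nkx2-2 fell on day 11 with Eed guides by 1.49, with Ezh2 guides by 1.04 and with Brd8 guides by 1.75 on the log2 scale, and Sim1, which marks V3 neurons, fell by 1.25, 1.06 and 1.90. Of 11 motor neuron genes, 3, 2 and 6 rose with Eed, Ezh2 and Brd8 guides on day 11 (13.3%, 5.22% and 10.3% of all genes). With Nr6a1 guides 1, Isl2, fell on day 11, when 0.0263% of all genes fell. The median log2 fold change of the 11 genes was 0.21, 0.51, 0.57 and -0.69 with Eed, Ezh2, Brd8 and Nr6a1 guides. On day 7, 7 of the 11 fell with Eed guides (5.76% of all genes) and 2 with Brd8 guides (3.45%). On day 9, 3 fell (7.81% of all genes) and 1 rose (7.72%) with Brd8 guides. Without the libraries of low agreement, the day 11 counts with Eed, Ezh2 and Brd8 guides were 2, 0 and 0 pan-neuronal genes lower, 2, 2 and 2 V2 and V3 genes lower and 1, 0 and 1 higher, and 3, 2 and 5 motor neuron genes higher, and Isl2 no longer passed with Nr6a1 guides.

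Pax2, Pax8, Lhx1 and En1 are also used outside the spinal interneurons, in kidney, inner ear and the midbrain-hindbrain region. Of 12 tested intermediate mesoderm and kidney genes, 2, 0, 1 and 0 rose and 1, 1, 1 and 0 fell with Eed, Ezh2, Brd8 and Nr6a1 guides on day 11, beside 13.3%, 5.22%, 10.3% and 0.0526% of all genes that rose. Cdh16, a kidney epithelial cadherin, was at 0 in all day 11 libraries, and the summed level of the list was 508 to 516, 501 to 534, 485 to 536 and 502 to 543 CPM in Eed-, Ezh2-, Brd8- and Nr6a1-labelled libraries, against 567 to 682 CPM in NT libraries. The median log2 fold change of that list, which weighs each gene alike, was 0.61, 0.03, 0.44 and 0.01 in the same order. Of 7 tested otic and placode genes, 2, 1, 2 and 0 rose, with Oc90, an otic gene, at 0 in all day 11 libraries and summed levels of 151 to 185, 88.6 to 191, 186 to 255 and 110 to 138 CPM, against 92.9 to 122 CPM in NT libraries. Of 8 midbrain-hindbrain genes, 1 rose with each of Eed, Ezh2 and Brd8 guides, Wnt1, which is also made by the dorsal midline of the cord, and the summed level was 62.5 to 78.3, 46.2 to 67.6, 61.7 to 72.0 and 37.8 to 40.4 CPM, against 34.0 to 43.7 CPM in NT libraries. With Eed, Ezh2, Brd8 and Nr6a1 guides, the median log2 fold change of the otic and placode genes was 1.73, 0.42, 0.83 and 0.91. It was 1.73, 0.30, 1.16 and 0.48 with genes at 0 in 1 group set at their bound and those at 0 in both left out. The median of the midbrain-hindbrain genes was 0.70, 0.57, 0.51 and 0.19. Without the libraries of low agreement, 1, 0 and 1 kidney genes, 2, 0 and 2 otic genes and 1, 1 and 2 midbrain-hindbrain genes rose with Eed, Ezh2 and Brd8 guides.

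Some neural crest genes rose on day 11 as well. Of 10 genes, 5, 3, 4 and 0 rose with Eed, Ezh2, Brd8 and Nr6a1 guides on day 11 (13.3%, 5.22%, 10.3% and 0.0526% of all genes). With the same guides 1, 1, 0 and 0 fell (10.6%, 2.7%, 7.48% and 0.0263% of all genes). The summed level was 427 to 514, 258 to 449, 485 to 658 and 288 to 347 CPM, against 240 to 283 CPM in NT libraries. The median log2 fold change was 1.25, 0.14, 1.16 and 0.12, and 3, 2, 4 and 0 rose without the libraries of low agreement. On day 7, 5 of the 10 already rose with Eed, 1 with Ezh2 and 5 with Brd8 guides (2.9%, 0.0855% and 1.3% of all genes), and the effect of Eed guides was lower on day 11 than on day 7 for 2 of the 10 and higher for 0 (edgeR, 2.32% of all genes lower). Tfap2a, a factor of neural crest and dorsal ectoderm, averaged 82.4 ± 5.30 CPM in Eed-labelled, 39.6 ± 11.9 CPM in Ezh2-labelled and 87.7 ± 23.7 CPM in Brd8-labelled libraries, against 9.96 ± 7.47 CPM in NT libraries (SD, n = 3 each). Foxd3 stands in both the neural crest and the dorsal neuron lists, and Tlx3 and Pou4f1 are known from sensory neurons derived from crest and placode as well. The part that any of these other cells had in the levels of the 10 factors was not tested.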

How the data were processed

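Total RNA libraries (a directional kit with ribodepletion, per the labels' protocols) from 41 samples were analysed from the gene table that the authors deposited, which holds estimated counts per gene. The labels' molecule field says genomic DNA, against the RNA protocol, and the values were treated as RNA. Build mm10 and DESeq2 are named in the submitters' processing notes, and the sources used here give no aligner, counting tool or strand setting. Of the values, 2.95% were not whole, and counts were rounded. No libraries held identical values.

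Genes were filtered with filterByExpr (minimum count 10), scaled by TMM and fitted in 1 edgeR 4.0.16 quasi-likelihood model (R 4.3.3) with a mean for each of 15 groups. Tests were two-sided, with Benjamini-Hochberg adjustment within each of 26 comparisons and a threshold of 0.05. The typical coefficient of variation between replicates was 0.182. Rate ratios on summed counts have exact Poisson intervals. Depth and 3-count floors are given with the results. The ribosomal gene Rn45s took 4.06% to 15.8% of counts.

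Alternatives were DESeq2 1.42.0 size factors and Wald test, no low-count filter, a replicate block, fits of only the groups compared and each library left out, and, added after seeing the data, fits without libraries of low agreement (best correlation within the group under 0.95) and without Rn45s. The edgeR procedure was tested on simulated data. Members, gene lists and tests were chosen with earlier results of these data known. All 10 members are described, with up to 3 genes per list and comparison with the smallest adjusted p and, for each member, the genes most correlated with it over 15 group means. Cdh16 and Oc90 were named to give their list's level. Results for a few genes that this rule would name are not reported here.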

Additional observations from a re-analysis of the deposited data

Results flagged for a closer look

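The effect of guides against NT differed between day 11 and day 7 in 5 of the tests made on the 10 factors. With Eed guides the log2 effect was larger on day 11 by 0.63 for Lhx1, 1.06 for Pax2 and 1.79 for Pax8. With Ezh2 guides it was larger by 1.10 for Pax2, and with Brd8 guides by 1.19 for Pax2. Each difference was tested as such in the edgeR fit, with adjusted p of 0.0261, 0.022, 0.0367, 0.0454 and 0.0119. The Pax2 levels behind them were 83.3 to 94.3, 82.7 to 101 and 100.0 to 106 CPM in Eed-, Ezh2- and Brd8-labelled libraries of day 11, against 27.6 to 34.6 CPM in NT libraries of that day.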

How the results depend on the processing

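Of 60 member values past the threshold, 32 passed in every alternative run and 28 failed in at least 1, and no value changed direction. Without the low-count filter, which tests more genes, the number of the 10 genes called was 3 for Eed day 7, 6 for Eed day 9, 3 for Ezh2 day 7, 2 for Ezh2 day 9, 4 for Brd8 day 7, and 1 each for Nr6a1 day 9, Nr6a1 day 11, Eed against Ezh2 on day 9 and the Nr6a1 difference between days; it was 2 for the Ezh2 and 4 for the Brd8 difference between days and 2 for Brd8 against Eed on day 9. With only the groups compared in the fit, it was 2 for Eed day 7, 1 for Ezh2 day 7, 3 for Brd8 day 7, 1 for NT day 11 against day 9 and 1 against day 7, and 1 for the Eed and 3 for the Brd8 difference between days. The DESeq2 Wald test called 1 for Ezh2 day 7, 1 for Ezh2 day 9 and 2 for Brd8 day 7. DESeq2 size factors, and leaving out the libraries of low agreement, each left 0 for the Ezh2 difference between days. The causes were not tested.

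Leaving out each library in turn gave 1 to 6 genes for Eed day 9, 7 to 8 for Eed day 11, 6 to 8 for Ezh2 day 11, 6 to 7 for Brd8 day 9, 7 to 9 for Brd8 day 11, 0 to 1 for Brd8 day 7, Nr6a1 day 7, Eed against Ezh2 on day 9, Brd8 against Eed on day 9 and the Ezh2 difference between days, 0 to 6 for Brd8 against Ezh2 on day 9, 2 to 7 for Nr6a1 against Eed on day 11, 1 to 3 for NT day 9 and NT day 11 against NT day 7, and 0 to 3 for the Eed difference between days. With a single library left in a group, that library is assumed to vary like the other groups.

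Replicate numbers showed no strong pairing: same-numbered libraries' deviations correlated at -0.031 to 0.104. These correlations cannot show whether same-numbered libraries were made together. A fit with the replicate number as a block kept all 81 named values on their side of the threshold, with 8 genes called for Eed day 11 and 1.20 for the Brd8 difference between days in Pax2. Leaving out Rn45s changed no call. Depth limits Lbx1, Barhl1 and Barhl2, which held at most 152 counts in a group and on day 11 carried standard errors of 1.10 to 2.58 on the log2 scale, against 0.21 to 0.22 for Pax2.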
